A study of Caenorhabditis elegans with 6 samples.

Results

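Oligonucleotides named tncR, read here as tiny noncoding RNA, formed a small class on a spotted Caenorhabditis elegans miRNA array. Of the 123 oligos on the array that carry an RNA name, 15 have a name starting with tncR and 108 are miRNA oligos, and the tncR class was taken by name alone. Its members are tncR2, tncR4, tncR5, tncR7-1, tncR8-1, tncR10, tncR11-1, tncR13, tncR15, tncR16, tncR17, tncR23, tncR29, tncR30 and tncR31. Tiny noncoding RNAs were described in C. elegans by cloning of small RNAs of about the size of a miRNA. They differ from miRNAs in lacking the conserved hairpin precursor, and the accumulation of some of them was later tied to Dicer and to the endogenous RNA interference pathway of the worm. The name is all that the sources used here say about each member, so no target, sequence or function is assigned to any of them.

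The RNA came from whole adults of fem-2(b245ts), a temperature-sensitive mutant, and of a second such mutant, fem-3(q20ts), grown as synchronized animals at 25 °C and taken 24 hours past late L4, as adults of day 1. FEM-2 and FEM-3 act in the pathway that sets germline sex. As background, at the restrictive temperature fem-2(b245ts) animals make oocytes and no sperm, and fem-3(q20ts), a gain-of-function allele, makes sperm and no oocytes, so a difference between them mixes the kind of gamete with the rest of the body. Gel-purified short RNA was labelled with Cy3 by ligation and hybridised in 1 colour. Each genotype had 2 biological replicates, replicate 1 on 2 technical arrays and replicate 2 on 1 array, which gives 6 arrays for 4 biological samples. In whole animals, fewer cells with an RNA and less of it per cell cannot be told apart. As a check of the labels, miR-35 to miR-41, known from oocytes and embryos, took 11.8% to 14.2% of all miRNA signal in fem-2(b245ts), against 0.353% to 0.478% in fem-3(q20ts).

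All values are deposited spot intensities, background-subtracted and scaled to one total per array. The Buffer level of an array is the 95th percentile of its 32 Buffer spots, which carry no oligo. It was 127, 114 and 21.5 for fem-2(b245ts), and 36.5, 41.5 and 19.0 for fem-3(q20ts), in the order replicate 1 array 1, replicate 1 array 2, replicate 2. The same order of arrays is used throughout. The number of arrays and of spots limits the precision of every value, and an intensity does not give a number of molecules.

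Most tncR oligos did not exceed Buffer on every array, although several were far above it on some arrays. By the mean over the spots of a name against the Buffer level, 3 of 15 (tncR2, tncR8-1 and tncR23) exceeded it on all 6 arrays, 8 on some arrays and 4 (tncR15, tncR16, tncR17 and tncR31) on none. Over all 123 named oligos, 50.4% were above it on all 6 arrays, and over the miRNA oligos alone 54.6%, while 5.69% of all named oligos were above it on none. The scanner software, available for the 4 arrays of replicate 1, marked 28 and 36 of the 68 tncR spots as detected for fem-2(b245ts), and 23 and 22 for fem-3(q20ts). On the same arrays it marked 325 and 357, then 333 and 342, of the 432 miRNA spots. Detected tncR spots were thus the minority on 3 of these 4 arrays, and detected miRNA spots the majority on all 4.

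Names did not stand for one signal in all cases, because tncR8-1 and tncR23 were each printed in 2 places with different brightness. Every other tncR oligo was printed once, as 4 adjacent spots, so that the 15 names fill 17 printed sets. In set B of the array layout tncR23 had mean intensities of 4989, 3721 and 547 for fem-2(b245ts), and 1671, 1110 and 462 for fem-3(q20ts). In set C the spots with the same name and oligo ID had 9.28, 8.52 and 13.9, then 9.28, 9.04 and 5.19. The lowest spot of set B exceeded the highest spot of set C on each of the 6 arrays. Set B lay 24.3 to 45.8 times above the Buffer level of its array, and set C at 0.0731 to 0.650 times that level.

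The same held for tncR8-1. Its set B had intensities of 549, 569 and 70.1 in fem-2(b245ts), against 117, 179 and 54.1 in fem-3(q20ts). Its set C had 19.5, 17.2 and 10.7, then 22.1, 40.4 and 5.25, below the level of the 32 Buffer spots on all 6 arrays. Here too no spot of set C reached the lowest spot of set B on any array. For both oligos the scanner marked 8 of 8 set B spots as detected in replicate 1 of each genotype, and 0 of 8 set C spots. Whether both places hold the same oligo was not tested, and an average over the 8 spots of either name describes neither place. The above-Buffer count of tncR8-1 and tncR23 therefore rests on set B: with printed sets kept apart, 3 of 17 (tncR2 and the B sets of tncR8-1 and tncR23) lay over Buffer on every array and 6 of 17 on none.

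The Buffer spots were not uniform. All 32 Buffer spots lie in set B, in rows 10 to 12, and the 8 of row 10 follow directly on the tncR23 and tncR8-1 spots. On the fem-2(b245ts) arrays the row 10 Buffer spots had medians of 93.8, 75.0 and 3.48, against 21.6, 10.7 and 5.65 for the 24 spots of rows 11 and 12. On the fem-3(q20ts) arrays the medians were 18.3, 27.0 and 4.45 in row 10, and 12.6, 9.12 and 1.98 in rows 11 and 12. By these medians row 10 was brighter than the other Buffer rows on every array but that of fem-2(b245ts) replicate 2. The ratio was largest on the 2 arrays where tncR23 was brightest. The row 10 spots brighter than all 24 others numbered 6, 8 and 0 of 8 in fem-2(b245ts), and 1, 5 and 0 in fem-3(q20ts). Between the fem-3(q20ts) arrays of replicate 1, tncR23 was brighter on array 1, while row 10 and set B of tncR8-1 were brighter on array 2. The printed set of row 10 Buffer spots next to tncR8-1 had means of 99.8, 111 and 5.84 in fem-2(b245ts), and 31.6, 41.8 and 4.82 in fem-3(q20ts). It ranked the arrays as set B of tncR8-1 did. The other printed set of row 10 had 107, 54.4 and 3.40, then 13.4, 14.6 and 3.21, and did not. Any part of the neighbouring oligo spots in the row 10 signal was not tested. The scanner marked 6, 8, 1 and 4 of the 8 row 10 spots as detected on the arrays of replicate 1, and 0, 0, 1 and 0 of the 24 others. Local background next to row 10 did not stand out, with medians of 231.5, 205.5, 224 and 202 scanner units on the arrays of replicate 1, against 231, 206, 222 and 202 next to rows 11 and 12.

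From rows 11 and 12 alone the Buffer level would be 45.5, 16.8 and 22.4 in fem-2(b245ts), against 34.4, 13.9 and 24.4 in fem-3(q20ts). On that level 4 tncR names were above Buffer on all arrays, against 71.5% of all named oligos. tncR5 was the one added. Set C of tncR8-1 was above that level on 2 arrays, array 2 of replicate 1 in each genotype, and set C of tncR23 on 0. The genotype difference of the Buffer level within replicate 1 was -1.63 on the log2 scale with all 32 spots and -0.34 with the 24. In replicate 2 these values were -0.17 and 0.12. The median of the 24 spots was also lower in fem-3(q20ts), with log2 differences of -0.50 within replicate 1 and -1.51 within replicate 2. This second level was chosen after the data were seen.

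Some members of the class had a large gap between the biological replicates, shared by both genotypes. tncR29 had intensities of 8682, 12985 and 9.99 in fem-2(b245ts), against 4688, 4250 and 6.74 in fem-3(q20ts). It was 68.4 to 128 times over the Buffer level on the 4 arrays of replicate 1, and below that level on both arrays of replicate 2. The fold of replicate 1 over replicate 2 was at least 412 in fem-2(b245ts), against at least 206 in fem-3(q20ts), bounds taken against the lowest miRNA oligo above the Buffer level of the replicate 2 array. Its spots alone made up 8.78% and 13.1% of the summed signal of the fem-2(b245ts) arrays of replicate 1 and 4.74% and 4.30% of those of fem-3(q20ts). In replicate 2 they made up 0.0101% and 0.00682%. The scanner noted saturated pixels in 1 tncR29 spot, on array 1 of fem-3(q20ts) replicate 1.

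tncR10 showed the same gap between replicates, at a lower intensity in replicate 1. It had 604, 915 and 12.3 in fem-2(b245ts), against 365, 481 and 13.2 in fem-3(q20ts), and was above the Buffer level on the 4 arrays of replicate 1 only. Replicate 1 was at least 28.7-fold over replicate 2 in fem-2(b245ts) and at least 19.9-fold in fem-3(q20ts). These were the 2 named oligos of 123 (1.63%) brighter in replicate 1 by over 3 on the log2 scale in both genotypes, and 0 of 108 miRNA oligos were. In the opposite direction, over 3 brighter in replicate 2, there were 0 tncR oligos and 1 miRNA oligo, miR-264, or 0.813% of all named oligos. By over 1 on that scale, 4 tncR and 2 miRNA oligos were brighter in replicate 1 in both genotypes (4.88% of all named oligos). Besides tncR10 and tncR29 the tncR oligos were tncR2, at 1.42 in fem-2(b245ts), against 1.78 in fem-3(q20ts), and tncR8-1, at 1.64 and 1.28. The B set of tncR8-1 alone was at 3.02 and 1.49, and that of tncR23 at 2.90 and 1.52.

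tncR4 and tncR7-1 ran the other way. tncR4 had 35.1, 15.6 and 86.4 in fem-2(b245ts), against 2.07, 9.31 and 77.1 in fem-3(q20ts). tncR7-1 had 44.2, 54.2 and 102 in fem-2(b245ts), against 5.06, 11.5 and 57.7 in fem-3(q20ts). Both were above the Buffer level on the replicate 2 array of each genotype and on 0 of the 4 arrays of replicate 1. With the level from Buffer rows 11 and 12, tncR7-1 was also above it on array 2 of fem-2(b245ts) replicate 1, where the scanner marked 3 of its 4 spots as detected. tncR4 and tncR7-1 were the 2 tncR oligos brighter in replicate 2 by over 1 on the log2 scale in both genotypes, against 7 of 108 miRNA oligos and 7.32% of all named oligos. The tncR class thus held members bright in one replicate or the other rather than one shift of all.

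Over the 9 tncR oligos that passed the filter on low values given below, the median absolute difference of the biological replicates was 1.42 in fem-2(b245ts), against 1.78 in fem-3(q20ts) on the log2 scale. For the 94 tested miRNA oligos it was 0.48 and 0.42. Between technical arrays of one sample the medians were 0.31 and 0.29 for the tncR oligos and 0.41 and 0.24 for the miRNA oligos. These medians describe the oligos and carry no test. Replicate number goes with RNA preparation and with array, and these cannot be told apart. The names on the replicate 2 arrays were taken over from the layout of the replicate 1 arrays, so a change of oligo at a spot between them was not tested.

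The comparison of the genotypes asked which tncR signals differed between animals with an oogenic and animals with a spermatogenic germ line. One oligo, tncR13, was called, with lower signal in fem-3(q20ts), and 0 were called in the other direction. Since tncR13 was not above Buffer on any fem-3(q20ts) array, it passed the filter on low values only through its fem-2(b245ts) signal, and its call is given as a description. An oligo was tested if its mean log2 intensity over the 4 samples exceeded the Buffer level averaged in the same way, 36.5. This kept 9 of the 15 tncR oligos, against 83.7% of all named oligos, with tncR8-1 and tncR23 entering as averages of both places. Among all 103 tested oligos, 7.77% were called lower and 0.971% higher by limma at a Benjamini-Hochberg adjusted p under 0.05. At an unadjusted limma p under 0.05 there were 2 tncR oligos lower, tncR13 and tncR5, and 0 higher.

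tncR13 had intensities of 125, 116 and 144 in fem-2(b245ts), against 6.32, 9.13 and 15.4 in fem-3(q20ts). The groups did not overlap, and every fem-2(b245ts) array was brighter than every fem-3(q20ts) array, spot by spot: the lowest fem-2(b245ts) spot was 97.7 and the highest fem-3(q20ts) spot 19.7. The scanner marked 8 of 8 spots as detected in fem-2(b245ts) replicate 1 and 0 of 8 in fem-3(q20ts) replicate 1. Local background around the tncR spots of set A had medians of 234 and 209 on those fem-2(b245ts) arrays, and of 225 and 211 on their fem-3(q20ts) counterparts, in scanner units before scaling. The 4 spots lie in set A, row 11, away from the Buffer spots.

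On the log2 scale tncR13 differed by -3.19 (SE 0.29; limma adjusted p = 0.00598), with mean intensities of 132 ± 16.8 (SD, n = 2) for fem-2(b245ts) and 11.6 ± 5.41 (SD, n = 2) for fem-3(q20ts). The difference was -3.14 within replicate 1, with -3.26 and -3.02 for its array pairs, and -3.24 within replicate 2. In fem-3(q20ts) the oligo exceeded Buffer on 0 of 3 arrays, which makes it at least 4.29-fold lower there, a bound that the p does not test. In fem-2(b245ts) it was above on 2 of 3 arrays, at 0.985, 1.02 and 6.73 times the level, and on 3 of 3 with the level from Buffer rows 11 and 12, where the bound was 5.08-fold. Its fem-3(q20ts) means were under the floor of 12.8 on 2 of 3 arrays, and values at the floor have a narrowed spread. The SE and p of tncR13 rest in part on such values and are given as a description. The call was lost with a trended robust eBayes (limma adjusted p = 0.146) and without fem-2(b245ts) replicate 2 (limma adjusted p = 0.056), with a range of 0.00191 to 0.146 over all settings, and the oligo was not tested when the level had to be exceeded in 2 of 4 samples. With no filter at all it was called (limma adjusted p = 0.00652). Computed from replicate 1 scanner intensities with normexp, an offset and quantile normalization, where the offset shrinks differences between low values, the difference was -1.46 against -3.14.

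tncR5 was lower in fem-3(q20ts) on every array, without a call in the unpaired fit. Its intensities were 136, 128 and 231 in fem-2(b245ts), against 38.3, 37.5 and 67.6 in fem-3(q20ts). The groups did not overlap, and in both genotypes replicate 2 was the brighter one. Its mean exceeded the Buffer level on 3 of 3 arrays of fem-2(b245ts) and on 2 of 3 of fem-3(q20ts), but by no more than 1.12 times on the arrays of replicate 1. The log2 difference was -1.77 (SE 0.48), a 3.41-fold lower level in fem-3(q20ts), which did not pass in the unpaired fit (limma adjusted p = 0.212). Within replicate 1 it was -1.80, within replicate 2 -1.74. With the replicate as a block the SE was 0.18 and the oligo passed (limma adjusted p = 0.0112), as the second of 2 tncR oligos, where 8.74% of all tested oligos were called lower. By the same normexp route it was -0.79 against -1.80.

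The remaining tested tncR oligos did not pass. tncR7-1 differed by -1.28 (SE 0.85), with -1.74 within replicate 1, where it was below the level of the 32 Buffer spots in both genotypes, and -0.82 within replicate 2. tncR4 was at -0.50 (SE 1.15), and its replicate 2 arrays, the ones above Buffer, differed by -0.17. tncR2, above Buffer on every array, had 336, 265 and 111 in fem-2(b245ts), against 135, 283 and 57.1 in fem-3(q20ts). The groups overlapped, also within replicate 1, where array pairs gave -1.30 and 0.09, and the technical arrays of fem-3(q20ts) differed from each other by -1.07. Its mean difference was -0.79 (SE 0.84), with -0.60 and -0.97 within replicates 1 and 2.

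For the oligos with the widest gap between replicates, the standard error exceeded the difference between genotypes. tncR29 differed by -0.73 (SE 4.45) and tncR10 by -0.39 (SE 2.63). Only the replicate 1 value rests on signal above Buffer, -1.29 for tncR29 and -0.82 for tncR10, and with the replicate as a block neither passed (limma adjusted p = 0.233 and 0.369). Each was lower in fem-3(q20ts) on both technical arrays of replicate 1, which is 1 biological sample per genotype.

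The names printed in 2 places had differences of -0.53 (SE 0.60) for tncR23 and -0.50 (SE 0.78) for tncR8-1 when both places were averaged. Their B sets alone differed by -0.94 (SE 1.19) and -1.16 (SE 1.22), with limma adjusted p of 0.778 and 0.704. Within replicate 1 the B sets were at -1.63 and -1.93, and within replicate 2 at -0.25 and -0.40. The C sets did not pass the filter and were not tested. The averaging shrank the replicate 1 values to -0.82 and -0.68.

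All 9 tested tncR oligos were lower in the mean in fem-3(q20ts), as were 47.6% of all tested oligos and 40 of the 94 miRNA oligos. Within both replicates 8 of 9 were lower, against 35.9% of all tested oligos, the exception being tncR10 with 0.04 in replicate 2. Some of these signs rest on values below the Buffer level in both genotypes. They are those of tncR29 and tncR10 in replicate 2, and of tncR4 and tncR7-1 in replicate 1. The median Buffer spot of rows 11 and 12 was also lower in fem-3(q20ts) within both replicates, that of row 10 only within replicate 1. Any part of such a shift, or of the scaling factors of the arrays, in these signs was not tested. The median difference was -0.73 for the tncR oligos and 0.14 for the miRNA oligos, with -0.84 and 0.21 in replicate 1 and -0.32 and 0.10 in replicate 2. The filter and the averaging of both places shape these 9, so that the counts carry no test. Without fem-2(b245ts) replicate 1 the median was -0.08 with 5 of 9 negative, and without fem-3(q20ts) replicate 2 it was -0.15 with 5 of 9 negative.

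The 6 untested oligos, tncR11-1, tncR15, tncR16, tncR17, tncR30 and tncR31, were dim on all arrays. Their mean intensities ranged from 11.6 to 46.4 for fem-2(b245ts), and from 1.94 to 16.4 for fem-3(q20ts). Of the 6, tncR11-1 and tncR30 each exceeded the Buffer level on 1 array, that of fem-2(b245ts) replicate 2, by 1.15 and 1.05 times. Each of the 6 had all 3 fem-3(q20ts) arrays below all 3 fem-2(b245ts) arrays, as did tncR5 and tncR13. That is 8 of 15 tncR names, against 19.5% of all named oligos. The median Buffer spot of rows 11 and 12 differed in the same direction (-0.50 and -1.51 within replicates 1 and 2), and its part in this count was not tested. The scaling factors of the replicate 1 arrays, given below, were also smaller in fem-3(q20ts), and their part was not tested either. On array 1 of fem-3(q20ts) replicate 1, 5 of the 17 tncR printed sets were dimmer than every Buffer spot, and 1 of 17 on array 2, against 0 on the other arrays. With the level from Buffer rows 11 and 12, tncR30 was above it on 3 arrays, tncR11-1 on 2, tncR15, tncR17 and tncR31 on 1 each and tncR16 on 0. No fold is given for these oligos, since the bound came to less than 1 wherever one could be taken.

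The tncR spots also entered the scaling. As a class they made up 15.9%, 19.2% and 1.46% of the summed signal of the fem-2(b245ts) arrays, and 7.19%, 6.55% and 0.877% of that of the fem-3(q20ts) arrays. The share was highest in fem-2(b245ts) replicate 1, and within each replicate it was higher in fem-2(b245ts). Because the deposited values are scaled to one total, a larger share of tncR signal lowers all other values of that array. With the arrays rescaled on the other spots, an alternative chosen after the data were seen, the median tncR difference was -0.80 and that of the miRNA oligos 0.04. tncR13 was then at -3.25 (limma adjusted p = 0.00266) and tncR5 at -1.86 (limma adjusted p = 0.0935), so that neither call changed.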

How the data were processed

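The deposited value table holds spot intensity, scaled by the authors on total array intensity per the series' design text, and the 6 column totals were equal. For the 4 arrays of replicate 1, scanner files gave names, intensity, a signal-to-noise score, detection marks and the percent of saturated pixels, per the file headers. In them the deposited normalized intensity equalled spot mean minus median background to within 0.005, and the table equalled it times 1 factor per array (0.689 to 1.10, tolerance 0.1%) on all tncR spots. For arrays 1 and 2 the factor was 1.10 and 0.946 in fem-2(b245ts), and 0.689 and 0.807 in fem-3(q20ts). It was thus smaller on both fem-3(q20ts) arrays, and applied to Buffer and oligo spots alike. Any part of this scaling in the replicate 1 differences of dim oligos was not tested. Names were joined by spot number. Scanner software versions are not used here, and no probe sequence was analysed here.

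A floor was set at the 10th percentile of positive values (12.8), log2 was taken, and spots of a name were averaged, then over technical arrays. Differences, fem-3(q20ts) minus fem-2(b245ts), were fitted by limma 3.58.1 under R 4.3.3, using lmFit then eBayes, on all tested oligos (two-sided, Benjamini-Hochberg, 2.09 prior and 2 residual degrees of freedom). The fit was checked on simulated data with no floor and no replicate shift shared by the genotypes. That check therefore does not cover oligos with such values. An exact permutation test of 2 against 2 cannot go below p = 0.333. Arrays of one replicate number share a token in their descriptions, read here as pairing the samples, a meaning the labels leave unstated. Replicate 1 minus 2 correlated between genotypes over 103 oligos (r = 0.906, oligos not being independent). Over the 94 tested miRNA oligos alone r was 0.711, and over the 9 tested tncR oligos 0.992. Every tncR oligo is named, by rule. Members and lists were chosen with earlier results of these data known. Alternatives were a block, other scalings, floors, filters and levels, and single samples or arrays left out. The printed sets kept apart, the Buffer rows 11 and 12 and the rescaling were added after the data were seen.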

Additional observations from a re-analysis of the deposited data

Results flagged for a closer look

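Oligos without an RNA name enter no comparison above, and 7 of the 9 exceeded the Buffer level on both arrays of replicate 2. Most named oligos did so too. On those arrays, fem-2(b245ts) then fem-3(q20ts), 104 and 102 of the 108 miRNA oligos exceeded it, and 9 and 6 of the 15 tncR oligos. In fem-2(b245ts) replicate 2 the intensity was 74.3 for emc140, 380 for emc141, 51.2 for emc142, 202 for emc144, 69.4 for emc145, 213 for emc146 and 38.7 for emc148. In fem-3(q20ts) replicate 2 it was 48.7, 228, 29.0, 96.5, 36.4, 124 and 19.4 in the same order. None of these 7 exceeded the level of the 32 Buffer spots on any of the 4 arrays of replicate 1. That level was higher in replicate 1, and emc148 had 65.2 on array 1 of fem-2(b245ts) replicate 1, more than in replicate 2. With the level from Buffer rows 11 and 12, all 7 exceeded it (16.8) on array 2 of fem-2(b245ts) replicate 1, at 17.1, 18.6, 26.0, 21.5, 17.1, 37.7 and 26.3. On array 2 of fem-3(q20ts) replicate 1 all but emc140 exceeded it (13.9). One oligo has a name that records a contamination with emc124, the oligo ID of tncR17. It exceeded the level of the 32 Buffer spots on the replicate 2 arrays only, with 70.7 and 34.3, where tncR17 itself had 11.6 and 6.76. On the arrays numbered 2 of replicate 1 it had 55.5 and 18.2, above the level from rows 11 and 12.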

How the results depend on the processing

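Fits that changed only the block, filter, eBayes, oligos entered or printed sets left each counted difference as it was, so its sign could not change. With those included, 174 of 185 tncR differences over 21 other fits kept the sign of the reported one. The 11 that changed were those of tncR4 (3 settings, among them quantile normalization at 0.09) and, when 1 sample was left out, of tncR2, tncR8-1, tncR10, tncR23 and tncR29, and none of these was called. The count of tncR oligos called lower was 1, and 2 with the replicate block, which added tncR5. It was 0 with a trended robust eBayes and 0 when the level had to be exceeded in 2 of 4 samples, where tncR13 was not tested. It ranged from 0 to 1 with 1 biological sample left out, the 0 without fem-2(b245ts) replicate 2. The count called higher was 0 throughout. The block changed no other tncR call. The median tncR difference ranged from -1.38 to -0.078 with 1 sample left out. When 1 of 2 samples is left out, the lone one is assumed to vary like the other genotype. Why these values moved was not tested. At the level of the 32 Buffer spots, 3 of 15 names exceeded Buffer on all 6 arrays.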
